A study of Mus musculus with 2 samples.

Results

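The 46 genes described here encode enzymes of glycolysis, of the pentose phosphate pathway and of the TCA cycle, with the pyruvate dehydrogenase complex that joins them and its kinases. They were picked by symbol from the 23961 gene symbols kept from the deposited tables, and all 46 were found, each as a single row with an estimate. By pathway, 17 belong to glycolysis, 7 to pyruvate entry into mitochondria, 7 to the pentose phosphate pathway and 15 to the TCA cycle. All 46 reached 1 FPKM (fragments per kilobase of transcript, scaled to library size) in both libraries, so no filter on low values removed a member.

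RNA was sequenced from haematopoietic stem cells that had been sorted out of bone marrow. The C57BL/6 mice were untreated and were kept under a 12:12 light/dark cycle. One library is labelled Per2wt (wild-type) and 1 is labelled Per2def (Per2-deficient). Per2 makes a protein that holds the circadian clock genes in check. The labels do not give the Per2 allele, the sort markers, the age or the time of day of collection. Nor do they say how many animals gave each library. Each genotype has a single library and hence no replicate error, test or p-value, so what is compared below is a pair of libraries, not genotypes. Each difference is the log2(FPKM + 1) of Per2def minus that of Per2wt, and the added 1 makes the differences of low genes look smaller than their fold.

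The label and the cell type were looked at first. Per2 itself had 1.96 FPKM under the label Per2wt and 6.16 FPKM under the label Per2def, higher where a loss of the transcript would make it lower, so every direction below is between libraries as labelled. Among stem and progenitor markers, Cd34 (90.5 and 83.9 FPKM in Per2wt and Per2def), Flt3 (48.8 and 51.4 FPKM) and Kit (42.7 and 43.6 FPKM) were abundant, while Slamf1, a surface marker of long-term stem cells, was at 0.245 and 0.522 FPKM. That list summed to 245 and 244 FPKM, with 4 of 9 measured markers higher in Per2def. Those furthest apart were Cd48, at 16.01 and 22.6 FPKM (0.47), and Hlf, at 20.3 and 15.8 FPKM (−0.34). The 11 neutrophil markers found summed to 514 and 978 FPKM, with 9 of the 10 measured ones higher in Per2def and Retnlg listed at 0 there. The erythroid list summed to 675 and 718 FPKM, with 7 of 11 measured markers higher. Summed in Per2wt and Per2def, the megakaryocyte markers came to 44.8 and 35.6 FPKM, the monocyte and macrophage markers to 55.04 and 69.84 FPKM and the T cell markers to 3.20 and 7.05 FPKM. Of the 6 measured megakaryocyte markers 3 were higher and 3 lower, and Thbs1, at 8.70 and 0.996 FPKM, made up most of the gap between the sums. The B cell list summed to 6.59 and 6.19 FPKM, and its defining members Ms4a1 and Pax5 were each listed at 0 in 1 library. The read totals are not in the files. The most common FPKM ratio among 3232 very low genes (under 0.5 FPKM) fits a depth of Per2def that is 1.24 times that of Per2wt.

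Glycolysis splits glucose to pyruvate in the cytosol, and lactate dehydrogenase turns pyruvate to lactate. The pentose phosphate pathway draws off glucose phosphate to make NADPH and ribose, the sugar of nucleotides. Pyruvate dehydrogenase feeds pyruvate into the mitochondrial TCA cycle, and its kinases, the PDKs, switch it off by phosphorylation. In quiescent haematopoietic stem cells, PDK activity is known to hold pyruvate back from mitochondria and to keep the cells glycolytic.

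Promoter sequence is shown for the genes of the kinases that stood furthest apart, Pdk1 and Pdk2, and for Ldha, an abundant gene that stood close in the libraries. CLOCK:BMAL1, the activator that PER proteins repress, binds the E-box CACGTG, which MYC:MAX also binds, while HIF-1, the hypoxia factor, binds cores that read ACGTG or GCGTG. The stretches are the 150 bases before a RefSeq transcription start (GRCm38.p6), 5′ to 3′ on the gene's strand. Every match to one of these motifs on either strand is in capitals. Stretches that overlap an annotated exon in GENCODE M21 are not shown, so the lack of overlap was fixed in advance. The stretch of Aco1 was left out for this reason. Pdk1 lies at chr2:71873074-71873223 (plus strand), Pdk2 at chr11:95041372-95041521 (minus strand) and Ldha at chr7:46845654-46845803 (plus strand).
Pdk1: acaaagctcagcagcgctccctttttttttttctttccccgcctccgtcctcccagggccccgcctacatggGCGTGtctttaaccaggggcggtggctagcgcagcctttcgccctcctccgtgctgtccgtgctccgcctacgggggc
Pdk2: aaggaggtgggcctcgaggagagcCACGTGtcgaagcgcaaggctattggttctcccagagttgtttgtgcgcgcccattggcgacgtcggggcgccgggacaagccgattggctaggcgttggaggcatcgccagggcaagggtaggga
Ldha: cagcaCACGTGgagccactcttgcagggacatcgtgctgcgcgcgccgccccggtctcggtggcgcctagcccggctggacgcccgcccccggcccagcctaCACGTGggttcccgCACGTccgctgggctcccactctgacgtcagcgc

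The Ldha stretch holds 2 E-boxes and a further ACGTG match, the Pdk2 stretch 1 E-box and the Pdk1 stretch 1 GCGTG match. Each of these genes has 2 RefSeq windows. For Pdk1 and Pdk2 the window nearest the annotated start of the gene was taken. For Ldha the window was picked because it holds CACGTG, so an E-box there was fixed in advance. An E-box contains ACGTG on both strands, so these motifs overlap. Of all 32851 RefSeq promoter stretches of 150 bases, 4.30% hold CACGTG, 11.2% ACGTG and 20.5% GCGTG. These shares include genes not measured here. Over 300 bases, CACGTG stood in 8.09% of all 27025 genes and in 12.2% of the measured ones, so the shares for measured genes can be higher. Over the full windows of 300 bases (250 before to 50 after the start), 5 of the 45 members with a window hold CACGTG, namely Pfkm, Pfkfb3, Ldha, Pdk2 and Ogdh, against 12.2% of 8208 measured genes with a window. The sites of Pfkm, Pfkfb3 and Ogdh are shown because they complete that group, with 12 bases on each side, at chr15:98092441-98092470 (Pfkm, plus strand), chr2:11502126-11502155 (Pfkfb3, minus strand) and chr11:6292048-6292077 (Ogdh, plus strand, the nearer of 2 to a start).
Pfkm: aattaagtatgcCACGTGaagtaagtaatt
Pfkfb3: cacccttctctcCACGTGaaagggggctgg
Ogdh: gtcgcggcgtgtCACGTGgaccggtcgctc

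Genes with this motif went both ways. Pdk2 was higher in Per2def by 0.40, Ogdh by 0.12, Pfkm by 0.11 and Ldha by 0.09, and Pfkfb3 was lower (−0.23). The median difference was 0.11 over the 5 with CACGTG and 0.09 over the 40 without. ACGTG stood in 18 of the 45 members (40%, against 30.0% of measured genes), with a median of 0.05, and 0.10 over the 27 without. GCGTG stood in 28 of the 45 (62.2%, against 56.9% of measured genes), with a median of 0.09, and 0.11 over the 17 without. Over all measured genes with a window, the median was 0.059 with CACGTG and 0.048 without. It was 0.048 with ACGTG and 0.049 without, and 0.048 with GCGTG and 0.051 without. The gaps between the members' medians were not tested.

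None of the 46 enzyme genes was 2-fold apart. Of all 11121 measured genes, those reaching 1 FPKM in a library, 2.25% were, and of the 10072 other than small and predicted RNAs 0.417% were, so a count of 0 is near the background. The differences ran from −0.23 for Pfkfb3 to 0.42 for Aco1, and 23 members were within 0.1 of 0. A difference of 0.32 or more, which is 25% on the FPKM + 1 scale, was taken as a smaller threshold. It was reached by 3 members, 6.52% of them, against a background of 12.6% of all measured genes and 10.03% of those other than small and predicted RNAs. By level, it was reached by none of the 23 members at a mean of 20 to 100 FPKM (5.004% of genes at that level), 2 of the 15 at 5 to 20 FPKM (7.57%) and 1 of the 6 at 1 to 5 FPKM (12.9%). The share of members is thus near that of genes at their level. All 3, Pdk1, Pdk2 and Aco1, were higher in Per2def, as were 8.2% of measured genes. No member was lower by that much, as 4.38% of measured genes were. More broadly, 36 members were higher in Per2def and 10 lower, where 62% of all measured genes were higher and 38% lower. The median was 0.09 for the members and 0.05 for all measured genes. Scaling the libraries by the median of ratios, which lowers the median of all genes by 0.05, gave 28 members higher and 18 lower with a median of 0.03, where 50.05% of all genes were higher. The count past 0.32 was 3 under that scaling too.

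**Figure D1:**
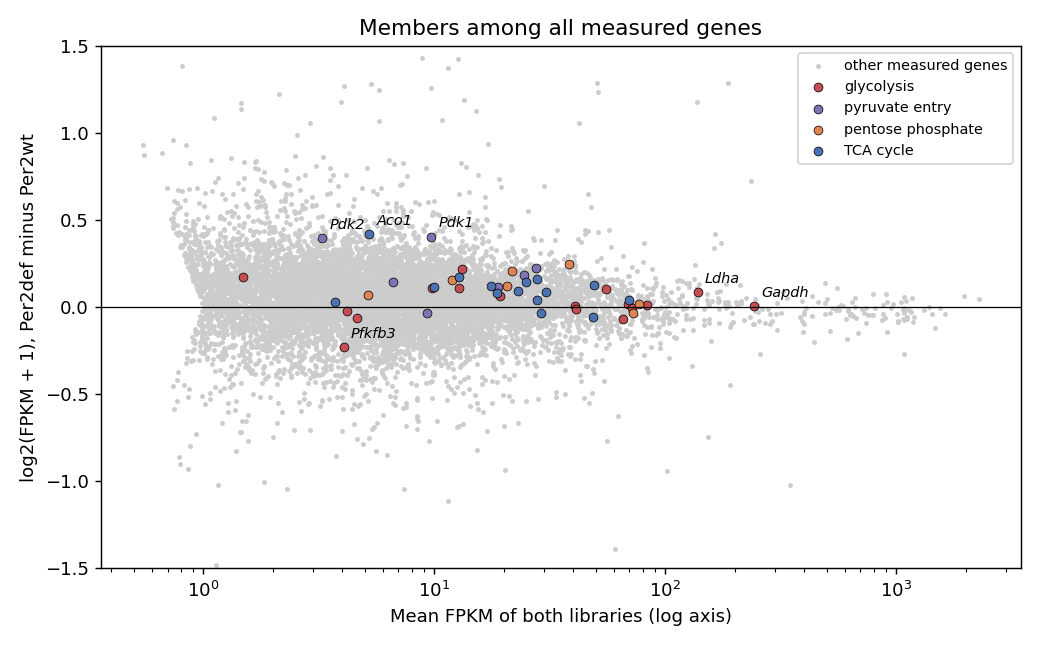
Difference in log2(FPKM + 1), Per2def minus Per2wt, against the mean FPKM of both libraries (log axis), for measured genes other than small and predicted RNAs (grey) and for the members (coloured by pathway). The members lie inside the cloud, with Aco1 highest at 0.42 and Pfkfb3 lowest at −0.23; 11 of the 10072 genes lie outside the plotted range of −1.5 to 1.5.

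The level of a gene sets how far it can be read, since low genes scatter more. For genes at a mean of 20 to 100 FPKM, small and predicted RNAs left out, 95% of the differences lay between −0.33 and 0.31 (the middle of their distribution), and the 23 members at that level all lay inside. For genes at 5 to 20 FPKM the range was −0.33 to 0.42, and of 15 members there Aco1 alone lay outside, by less than 0.01. For genes at 1 to 5 FPKM the range was −0.39 to 0.52, and all 6 members lay inside. Aco1, at 4.34 and 6.15 FPKM, is close to the edge of 5 FPKM, and its 0.42 would lie inside this lower group's range. Gapdh and Ldha, the only members above 100 FPKM, lay inside as well. At 5 to 20 FPKM, 14 of the 15 members were higher in Per2def, against 62.1% of the 4348 genes at that level. At 20 to 100 FPKM 17 of 23 were higher, against 58.7% of genes, and at 1 to 5 FPKM 3 of 6, against 63.8%.

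**Figure D2:**
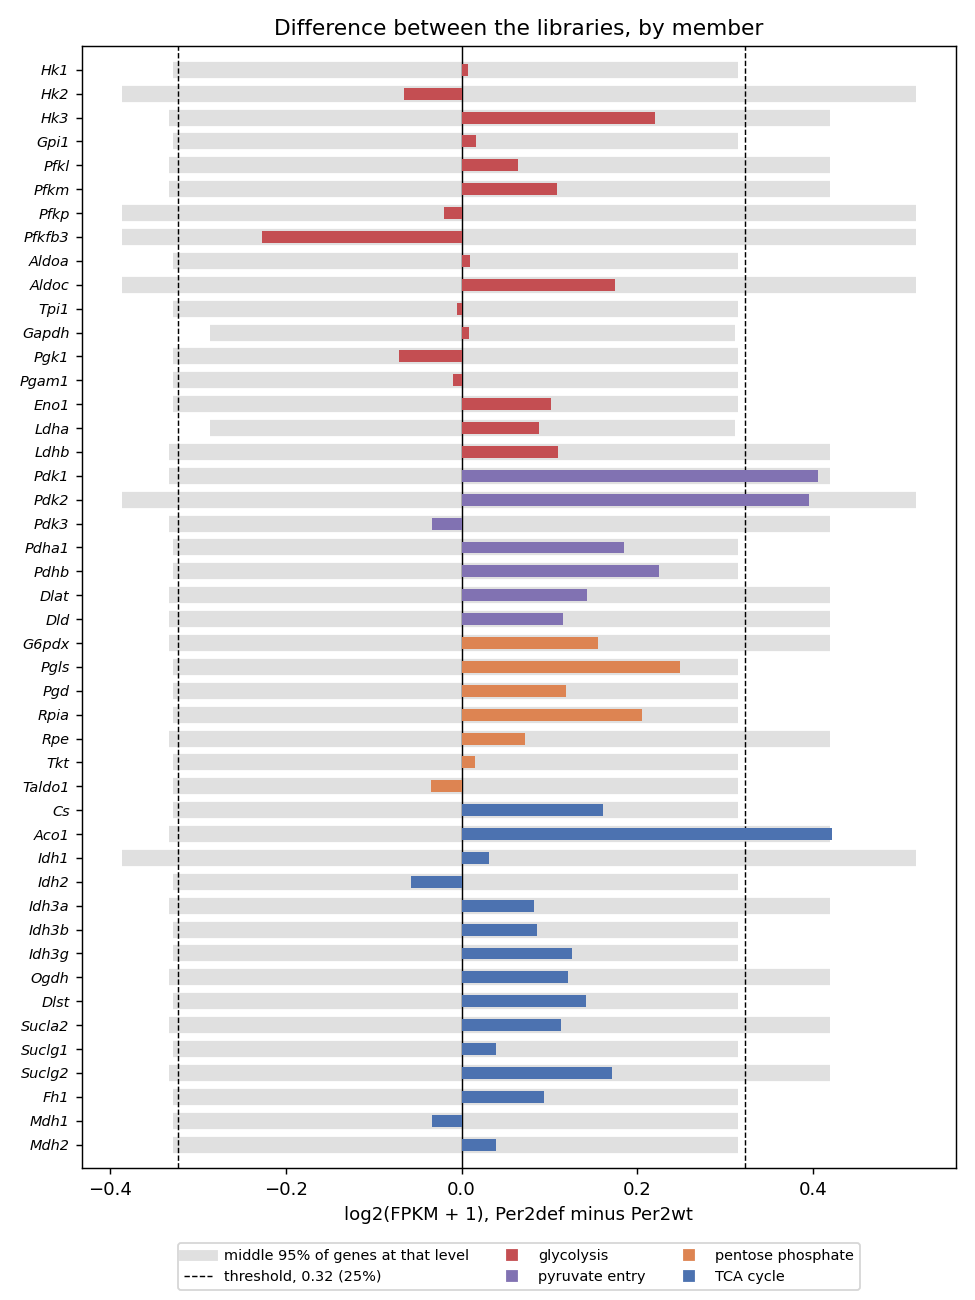
Difference in log2(FPKM + 1), Per2def minus Per2wt, for each of the 46 members (bars, coloured by pathway), with the middle 95% of genes at the same level in grey and the threshold of 0.32 in either direction dashed. Pdk1, Pdk2 and Aco1 pass the dashed line, and only Aco1, whose mean level is close to the edge of its level group, reaches past its grey range.

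The members kept nearly the same order of abundance in both libraries (Spearman's rho 0.99 across 46 genes of the same pair of libraries, a description). FPKM are set relative to length, so levels can be compared between genes. Gapdh, the dehydrogenase of the middle of glycolysis, was the most abundant at 242 FPKM in Per2wt and 244 in Per2def. Ldha came next at 134 and 143 FPKM, then the aldolase gene Aldoa at 83.4 and 84.0 FPKM. The least abundant was Aldoc, the brain form of aldolase, at 1.34 and 1.64 FPKM. The members of glycolysis summed to 870 and 886 FPKM, those of the TCA cycle to 389 and 409 FPKM, those of the pentose phosphate pathway to 241 and 253 FPKM, and those of pyruvate entry to 92.7 and 107 FPKM. The ratio of these sums, Per2def over Per2wt, was therefore lowest for glycolysis (1.02) and highest for pyruvate entry (1.15), with 1.05 for each of the others.

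**Figure D3:**
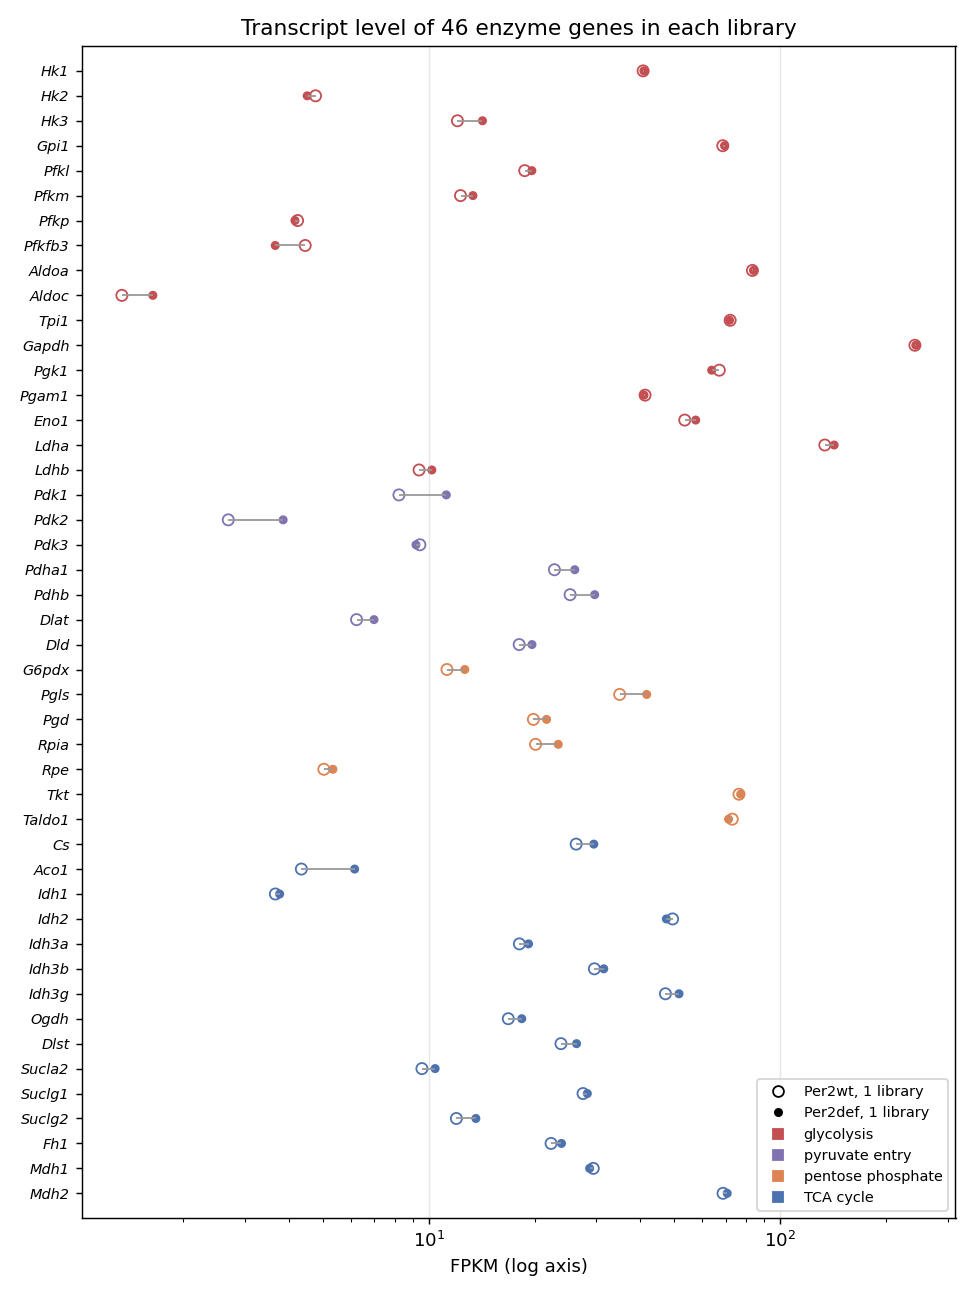
FPKM (log axis) of each member in the Per2wt library (open circles) and the Per2def library (filled circles), ordered and coloured by pathway. Open and filled circles nearly coincide for Gapdh, Aldoa, Tpi1 and Tkt and are furthest apart for Pdk1, Pdk2 and Aco1.

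In glycolysis, the enzymes that make up most of the transcript were alike in both libraries. The 16 enzyme genes had a median difference of 0.01, and none reached 0.32. Gpi1, which turns glucose phosphate to fructose phosphate, was at 68.7 and 69.5 FPKM, and Tpi1, the triose phosphate isomerase, at 72.1 and 71.8 FPKM. Pgam1, the phosphoglycerate mutase, was at 41.3 and 41.0 FPKM. Pgk1, the kinase that yields the first ATP, was lower in Per2def, at 67.2 and 63.9 FPKM (−0.07). Eno1, the enolase, was at 53.5 and 57.5 FPKM (0.10). Of all 17 glycolysis members, 11 (64.7%) were higher in Per2def with a median of 0.01, near the background of 62%. Under the median of ratios, where the background is 50.05%, 7 were higher with a median of −0.05, so the direction of the group depends on the scaling. The signs of Hk1, Gpi1, Aldoa and Gapdh turned with it.

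Several of these genes have close copies, which limits single values. Of the 50-base words in the longest coding transcript, 82.5% in Gapdh, 72.2% in Eno1, 68.0% in Pgk1 and 41.5% in Pgam1 also stand in annotated transcripts of other genes. The share was over 20% in Ldhb, Pdhb and Suclg2 too, and 0 in Pdk1, Pdk2 and Aco1. Reads of such words can be assigned to a copy, so the levels of those 7 members are uncertain. A further limit is that 13 members, among them Hk1, Hk3 and Gpi1, overlap an exon of a gene on the other strand, and the strand setting of the counting is not known from the sources. On the same strand, exons of Pfkm, Pgls and Tkt overlap those of Gm26513, Fam129c and Mir3076.

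Hexokinase, which traps glucose in the cell, was mostly Hk1. Hk1, the widespread form bound to mitochondria, was at 40.8 and 41.0 FPKM, 70.8% and 68.6% of the 3 hexokinase transcripts. Hk3, the form typical of myeloid cells, was at 12.1 and 14.2 FPKM (0.22), and its share was 20.96% in Per2wt and 23.8% in Per2def. Hk2, the inducible form, was at 4.76 and 4.51 FPKM (−0.06). The higher Hk3 level stood in the library with the higher summed neutrophil markers, 978 against 514 FPKM; their part in the result was not tested.

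Phosphofructokinase, the committed step, was a mixture with nearly the same makeup in both libraries. The liver form Pfkl was at 18.8 and 19.7 FPKM (53.1% and 52.9% of the 3), the muscle form Pfkm at 12.3 and 13.4 FPKM (34.9% and 35.9%) and the platelet form Pfkp at 4.23 and 4.16 FPKM (12.0% and 11.2%). Pfkfb3 makes the sugar bisphosphate that activates phosphofructokinase. It was at 4.45 and 3.65 FPKM, the lowest difference of the 46 (−0.23) but short of 0.32 and inside the range of genes at its level.

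Lactate dehydrogenase transcripts were almost all of the A form, which favours lactate formation. Ldha took 93.5% of the pair in Per2wt and 93.3% in Per2def. Ldhb, the form of oxidative tissues, was at 9.38 and 10.2 FPKM (0.11), and Ldha exceeded it 14.3-fold and 14.0-fold. Aldoa likewise took 98.4% and 98.1% of the aldolase transcripts.

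**Figure D4:**
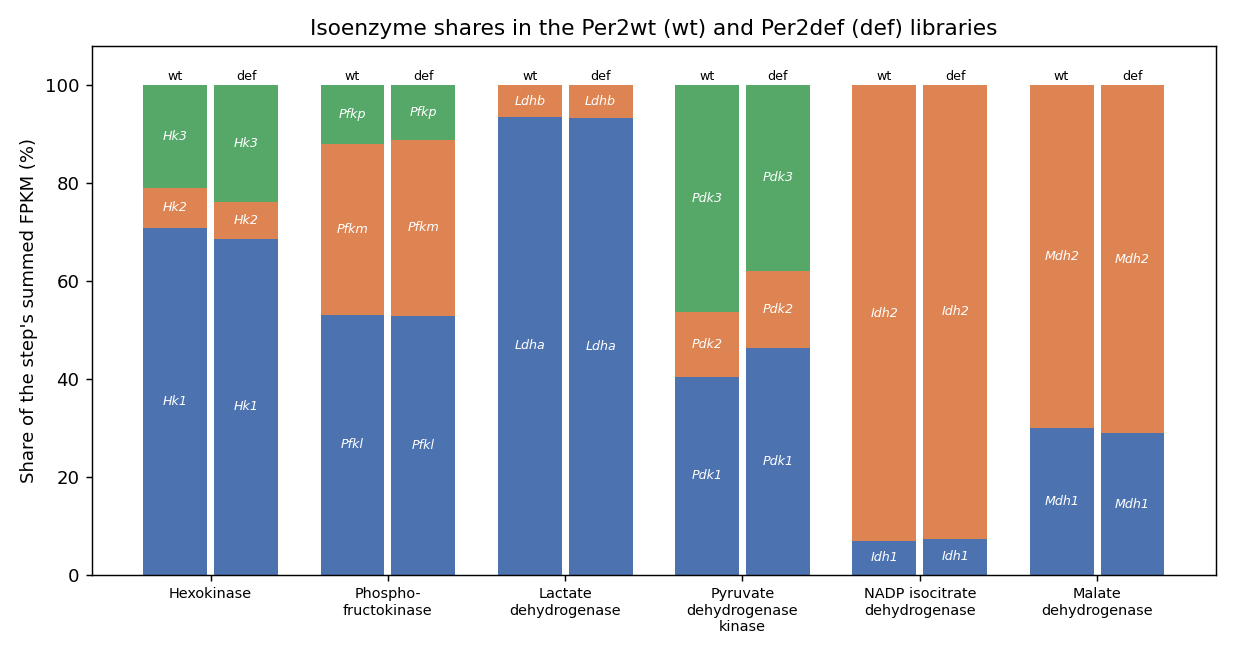
Share of each isoenzyme gene in the summed FPKM of its step (stacked bars, percent), in the Per2wt (wt) and Per2def (def) libraries. Shares are close in 5 of the 6 steps, while among the pyruvate dehydrogenase kinases Pdk3 takes 46.4% in Per2wt and 37.9% in Per2def.

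Pyruvate entry held 2 of the 3 members past 0.32, which is 28.6% of its 7 members, beside 12.6% of all measured genes. At the levels of Pdk1 and Pdk2, 7.57% and 12.9% of genes reached it, and a share of 7 genes rests on few. Pdk1 (ENSMUSG00000006494.11, chromosome 2, 71873224 to 71903858, plus strand, GRCm38) is a target of the hypoxia factor HIF-1. It had 8.22 FPKM in Per2wt against 11.2 in Per2def, 1.36-fold higher (0.41). Pdk2 (ENSMUSG00000038967.13, chromosome 11, 95026258 to 95041354, minus strand), the most widespread of these kinases, was at 2.69 and 3.85 FPKM, 1.43-fold higher (0.40). Pdk3 was at 9.43 and 9.19 FPKM (−0.03), so the kinases did not move together. The leading kinase transcript was Pdk3 in Per2wt, with 46.4% against 40.4% for Pdk1, and Pdk1 in Per2def, with 46.2% against 37.9% for Pdk3. The difference of Pdk1 ran from 0.35 to 0.44 over 8 other settings of scaling, pseudocount, filter and row handling, and that of Pdk2 from 0.35 to 0.50 over 7. Filter and row handling cannot change the value of a gene in a single row, so these ranges come from scaling and pseudocount alone. Both differences lay inside the middle 95% of genes at their level, whose upper ends were 0.42 and 0.52.

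The 4 member subunits of the enzyme complex that the kinases inhibit were all higher too, by less than Pdk1 and Pdk2 but not than Pdk3. Pdhx, a further part of the complex outside the member list, was higher by 0.36. Pdhb, the beta subunit of the first component, was at 25.3 and 29.7 FPKM (0.22), and Pdha1, the alpha subunit that the kinases phosphorylate, at 22.8 and 26.0 FPKM (0.18). Dlat, the core acetyltransferase, was at 6.23 and 6.98 FPKM (0.14), and Dld, a dehydrogenase shared with the oxoglutarate complex, at 18.1 and 19.7 FPKM (0.11). The 3 kinases summed to 0.893 of the Pdha1 level in Per2wt and to 0.932 of it in Per2def, so kinase and target transcripts kept a similar proportion. Of the 7 members of pyruvate entry, 6 were higher in Per2def (background 62% of measured genes), with a median of 0.18, and 6 were higher under the median of ratios (background 50.05%) as well.

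The oxidative arm of the pentose phosphate pathway, which yields NADPH, had a median difference of 0.16, and the non-oxidative arm one of 0.04. The oxidative arm's gatekeeper G6pdx was at 11.3 and 12.7 FPKM (0.16), the lactonase gene Pgls at 34.9 and 41.7 FPKM (0.25) and the second dehydrogenase gene Pgd at 19.9 and 21.6 FPKM (0.12). The Pgls difference, the widest of the pathway, was 1.19-fold. In the non-oxidative arm, which exchanges sugars with glycolysis, the isomerase gene Rpia was at 20.1 and 23.4 FPKM (0.21) and the epimerase gene Rpe at 5.03 and 5.33 FPKM (0.07). The abundant transferases stood close: Tkt, transketolase, at 76.4 and 77.2 FPKM (0.02) and Taldo1, transaldolase, at 73.1 and 71.4 FPKM (−0.03). In all, 6 of the 7 were higher (background 62%) with a median of 0.12, and 5 under the median of ratios (background 50.05%), where Tkt changed sign. Transketolase outnumbered G6pdx 6.78-fold in Per2wt and 6.10-fold in Per2def. The difference between the arms was not tested.

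In the TCA cycle most members were higher in Per2def by a small amount. Of 15, 13 were higher (background 62% of measured genes) with a median of 0.09, and 10 were higher with a median of 0.04 under the median of ratios (background 50.05%), where Idh1, Suclg1 and Mdh2 changed sign. Aco1 (ENSMUSG00000028405.9, chromosome 4, 40143081 to 40198338, plus strand) was the exception in size. It encodes the cytosolic aconitase, which without its iron-sulphur cluster becomes the iron regulatory protein IRP1 and so is not a step of the mitochondrial cycle. It had 4.34 FPKM in Per2wt against 6.15 in Per2def, 1.42-fold higher (0.42), with a range of 0.37 to 0.49 over the other settings of scaling and pseudocount.

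The other steps can be read around the cycle. Cs, citrate synthase, which starts it, was at 26.3 and 29.5 FPKM (0.16). The 3 subunits of the NAD-linked isocitrate dehydrogenase, Idh3a, Idh3b and Idh3g, were higher by 0.08, 0.09 and 0.13, and summed to 94.9 and 102 FPKM. The NADP-linked forms did not share this: mitochondrial Idh2 was at 49.4 and 47.5 FPKM (−0.06) and cytosolic Idh1 at 3.66 and 3.76 FPKM (0.03). Idh2 thus made up 93.1% and 92.7% of the NADP-linked pair.

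Of the oxoglutarate dehydrogenase complex, the first component Ogdh was at 16.8 and 18.4 FPKM (0.12) and the core Dlst at 23.8 and 26.3 FPKM (0.14). Succinyl-CoA ligase pairs Suclg1, the alpha subunit, with a beta subunit that sets whether ATP (Sucla2) or GTP (Suclg2) is made. Suclg1 was at 27.5 and 28.3 FPKM (0.04), Sucla2 at 9.56 and 10.4 FPKM (0.11) and Suclg2 at 12.0 and 13.6 FPKM (0.17). The GTP form was the more abundant beta subunit in both libraries. Fh1, fumarase, was at 22.3 and 23.9 FPKM (0.09). The malate dehydrogenases were alike, with mitochondrial Mdh2 at 68.8 and 70.7 FPKM (0.04) and cytosolic Mdh1 at 29.4 and 28.7 FPKM (−0.03).

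Sorted by the place of the protein, 16 of the 18 members of the mitochondrial matrix were higher in Per2def (median 0.12), as were 19 of the 27 cytosolic ones (median 0.03), or 70.4%, beside a background of 62%. Under the median of ratios, with a background of 50.05%, 14 of the 18 (median 0.07) and 13 of the 27 (median −0.01) were higher, so the direction of the cytosolic median depends on the scaling. Fumarase works in both places. The matrix group holds fewer of the most abundant transcripts. Genes at 5 to 20 FPKM had a median of 0.05, those at 20 to 100 FPKM 0.03 and those above 100 FPKM −0.01. Gapdh and Ldha are the only members above 100 FPKM. The part of level in the difference between matrix and cytosol was not tested.

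Other genes of these pathways lay close to the background. Of 52 such enzymes and transporters 31 were measured, 21 of them higher in Per2def (62% of all measured genes were), with a median of 0.07. The threshold of 0.32 was reached by 4 (12.6% of all measured genes reached it), all of them higher. Pklr, the pyruvate kinase of liver and red cells, was at 13.2 and 20.1 FPKM (0.57), whereas Pkm, the form of most tissues, was at 97.7 and 90.2 FPKM (−0.11). The ratio of Pkm to Pklr was thus 7.42 in Per2wt and 4.49 in Per2def. Beside this, the erythroid markers Klf1, at 16.2 and 21.8 FPKM, and Car1, at 177 and 294 FPKM, were higher in Per2def, and Hba-a1, at 193 and 115 FPKM, was lower; their part in the Pklr level was not tested. Pfkfb2, a relative of Pfkfb3, went opposite to it, at 2.20 and 3.38 FPKM (0.45). The others were Pcx, pyruvate carboxylase, at 0.607 and 1.24 FPKM (0.48), and Pdhx, the binding protein of the pyruvate dehydrogenase complex, at 2.70 and 3.75 FPKM (0.36).

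Of the TCA list, Sdhd, a membrane anchor of succinate dehydrogenase, was at 36.1 and 30.0 FPKM (−0.26), while the other subunits Sdha, Sdhb and Sdhc were higher by 0.08, 0.07 and 0.07. The 6 transporters of glucose, lactate and pyruvate had a median of 0.11 and none reached 0.32, with the glucose carrier Slc2a1 at 3.81 and 4.43 FPKM (0.18) and the lactate carrier Slc16a3 at 1.28 and 1.53 FPKM (0.15). Among 8 measured regulators of glycolytic genes 1 reached 0.32, a share near the background of 12.6%. It was Mlx, a partner of the glucose sensor ChREBP, at 5.08 and 6.88 FPKM (0.37). The gene of ChREBP itself, Mlxipl, was at 0.0253 and 0 FPKM. Hif1a was at 4.24 and 4.49 FPKM (0.06) and Myc at 67.2 and 60.3 FPKM (−0.15).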

How the data were processed

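The 2 poly(A) RNA-seq libraries, from sorted bone marrow stem cells, 1 per genotype label, were compared. The authors deposited FPKM per gene, computed with Cufflinks per the file headers; the submitters' processing notes also name CASAVA 1.8, TopHat, Bowtie2 and the builds GRCm38 and mm10. Per the labels' protocols the kit marks strand. Not given in the sources used here are the other versions, the annotation and how strand was set. FPKM are relative to each library's total, and the absolute depth is unknown, so no counting interval is given.

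Of 24487 rows, 9 with the Cufflinks status flag for too much data and 27 with symbols turned into dates were left out, and rows sharing a symbol were summed. A gene counted as measured where either library reached 1 FPKM. Values were compared as log2(FPKM + 1), with thresholds of 0.32 (25%) and 1 (2-fold). The members and lists were chosen with earlier results of these data known. Named are the leading gene of each step, members past 0.32, the isoenzymes compared, and up to 3 genes per other list. Not all genes this rule allows are printed, and Pkm, Sdhb, Hif1a, Myc, Mlxipl, Kit, Slamf1, Cd48, Hlf, Thbs1, Klf1 and Hba-a1 were added after their values were seen. Tigar and Adgre1 were found under older names in the RefSeq gene table, and Ly6g was not matched. One gene of the other lists is not reported here. Gene coordinates come from GENCODE M21 (GRCm38), promoters from RefSeq (GRCm38.p6), with a window for 45 of the 46 members. Python 3.11.15, pandas 2.3.3 and numpy 2.4.6 were used. The calculation was tested on simulated data with planted 2-fold changes, so that test does not cover differences as small as those of the members.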

Additional observations from a re-analysis of the deposited data

How the results depend on the processing

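The number of members lower in Per2def was 10 as reported and 18 with the median of ratios. The median difference of the members, 0.091 as reported, was 0.033 with the median of ratios, 0.056 with the upper quartile, 0.083 with an equal total FPKM without small and predicted RNA rows, and 0.098 with a floor of 5 FPKM. The counts past 0.32 and past 2-fold stayed within 1.5 times the reported count in all 8 settings; a floor of 5 FPKM left out Pdk2 and gave 2 members past 0.32. Only another scaling can change the sign of a gene in a single row. Pseudocount, filter and row handling cannot, so their unchanged signs say nothing about stability. Of the members, 8 changed sign with the median of ratios and 5 with the upper quartile. With an equal total FPKM without small and predicted RNA rows, 1 did. None of these 14 changes belongs to Pdk1, Pdk2 or Aco1. No paired analysis was possible because each genotype has 1 library. Depth limits the members near 1 to 5 FPKM most.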
